A study of Mus musculus with 20 samples.

Results

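The orphan nuclear receptors Nr4a1, Nr4a2 and Nr4a3, the zinc finger transcription factors Egr1, Egr2 and Egr3 and the Egr corepressor Nab2 were followed across sorted CD4 T cell subsets of mouse peripheral lymph nodes (pLN) and Peyer's patches (PP). The 7 genes were found by their symbols in the annotation of the array and were covered by 9 probes of 39429. Nr4a2 and Nab2 had a pair of probes each. Of the 9 probes, 8 (all but the one of Nr4a3) were among the 22264 probes that were well above background on both arrays of at least 1 group and were therefore tested. For a gene with a pair of probes, the brighter one leads and the other is called the second probe.

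All cells came from mice of the strain B6.Cg-Foxp3<tm1Mal>, in which GFP reports expression of Foxp3, the lineage factor of regulatory T (Treg) cells. Mice of both sexes aged 8 to 14 weeks were used, and each sample was RNA of cells pooled from 8 to 15 mice on a single one-colour array. In pLN, immunised with KLH in alum, the sorted fractions were naive T (GFP-PD1loGL7-), Treg (GFP+PD1loGL7-), follicular helper T (TFH, GFP-PD1hiGL7+) and follicular regulatory T (TFR, GFP+PD1hi, GL7+ and GL7- together) cells. They were sorted on day 12 (d12, 2 arrays per fraction) and day 25 (d25, 1 array per fraction). From PP, which take up antigens directly from the gut, Treg cells, TFR cells, GL7+ TFH and GL7- TFH cells were sorted, with 2 arrays each. The labels of the PP samples name no immunisation. Together the fractions of both tissues make 12 groups and 20 arrays. PD1, the product of Pdcd1, and the Foxp3 reporter set the gates, so Pdcd1 and Foxp3 differ by design. The naive fraction is set by its gate alone and may hold other Foxp3- cells with low PD1.

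Nr4a and Egr genes are immediate early genes of the T cell. Binding of antigen by the T cell receptor raises calcium and activates the MAP kinase pathway, and both signals act on the promoters of these genes within minutes, so that their mRNA is commonly read as a sign of a recent receptor signal. Egr2 and Egr3 restrain activated T cells and are known for their role in anergy, Egr2 also promotes the follicular helper fate, and Nr4a receptors support Treg cells and act in exhausted T cells. Nab2 is induced by Egr factors and binds to them to limit their activity.

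The control regions through which these signals act are shown first. Of the 7 genes, 5 had promoter windows in RefSeq (mouse assembly GRCm38.p6), each holding the 250 bases before a start site. Capitals mark the core of the cAMP response element (CRE core, TGACG or, on the other strand, CGTCA), which CREB-family factors bind downstream of calcium and kinase signals, the EGR site (GCGNGGGCG on either strand), which Egr factors bind, and the CArG box, which serum response factor binds. The windows of the 3 Nr4a genes and of Egr2 are printed because they hold these motifs, 5′ to 3′ on the strand of the gene. They lie at chr15:101266596-101266845 (plus strand, Nr4a1), chr2:57124004-57124253 (minus strand, Nr4a2), chr4:48045055-48045304 (plus strand, Nr4a3) and chr10:67537619-67537868 (plus strand, Egr2).
Nr4a1: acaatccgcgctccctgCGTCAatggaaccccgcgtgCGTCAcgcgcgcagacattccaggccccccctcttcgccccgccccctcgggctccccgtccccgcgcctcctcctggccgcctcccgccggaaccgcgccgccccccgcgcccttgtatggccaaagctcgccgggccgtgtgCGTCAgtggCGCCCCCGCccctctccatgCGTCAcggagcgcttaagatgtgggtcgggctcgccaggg
Nr4a2: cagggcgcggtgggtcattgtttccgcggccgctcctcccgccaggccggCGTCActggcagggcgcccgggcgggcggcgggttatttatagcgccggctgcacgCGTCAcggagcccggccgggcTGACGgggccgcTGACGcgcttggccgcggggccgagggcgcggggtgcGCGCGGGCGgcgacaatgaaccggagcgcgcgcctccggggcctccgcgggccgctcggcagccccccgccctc
Nr4a3: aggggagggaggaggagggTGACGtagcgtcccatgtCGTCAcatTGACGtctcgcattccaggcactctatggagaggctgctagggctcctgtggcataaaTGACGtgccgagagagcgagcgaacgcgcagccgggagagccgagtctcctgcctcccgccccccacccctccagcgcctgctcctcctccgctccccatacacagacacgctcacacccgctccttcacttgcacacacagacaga
Egr2: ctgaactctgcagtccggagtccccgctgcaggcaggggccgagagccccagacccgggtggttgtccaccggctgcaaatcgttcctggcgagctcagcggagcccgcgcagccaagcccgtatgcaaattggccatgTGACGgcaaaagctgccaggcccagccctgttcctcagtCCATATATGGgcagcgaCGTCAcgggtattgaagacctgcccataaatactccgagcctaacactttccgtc

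The windows of Nr4a1, Nr4a2 and Nr4a3 held 4 CRE cores each. Of 32817 promoter windows of the same length, 17.7% held at least 1 CRE core and 0.137% held 4 or more. Nr4a1 and Nr4a2 also held 1 EGR site each, a motif present in 4.7% of all windows. The Egr2 window held 2 CRE cores and the CArG box CCATATATGG, and 1.47% of all windows held a CArG box. Egr2 has 5 annotated start sites, of which 3 lie within 100 bases of each other, and the first of these is shown. The single window of Nab2 held none of these motifs. The full cAMP response element TGACGTCA, which contains the CRE core on both strands and occurs in 1.55% of windows, and the Nr4a monomer site AAAGGTCA (1.34%) were found in none of the 5 genes' windows. These matches describe letters in a window and are not binding sites measured here.

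The probes lie on mm9, the assembly of the array annotation, at chr15:101105071-101105130 (Nr4a1), chr2:56960699-56960758 (Nr4a2), chr2:56959637-56959696 (Nr4a2, second probe), chr18:35024395-35024454 (Egr1), chr10:67004798-67004857 (Egr2), chr14:70479222-70479281 (Egr3), chr10:127098009-127098068 (Nab2) and chr10:127101413-127101472 (Nab2, second probe, assigned to another transcript of the gene). The Nr4a3 probe maps to chr4:48080690-48083876, a span of 3187 bases, so it crosses an intron. Both promoter and probe positions are given on the assembly of their own source, and these assemblies differ.

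Array values are normalised intensities, scaled to a 75th percentile of 1500 and floored at 20. Levels of different probes are not comparable with each other. Between 43.0% and 58.0% of probes were detected per array and none was saturated. The arrays lay on 5 slides, each with 4 groups of 1 tissue and day: slides 1 and 2 held replicates 1 and 2 of d12 pLN, slide 3 held pLN d25, and slides 4 and 5 held replicates 1 and 2 of PP. Foxp3 read 13409 to 35129 on the Treg and TFR arrays and 27 to 192 on all others, which matches the labels. The arrays of slide 4 stood apart. The 13 B cell markers were all detected on each of its arrays with a summed intensity of 26950 to 189329, against 6976 to 16202 with 11 to 13 of 13 detected on slide 5 and 4709 to 23612 with 5 to 13 of 13 detected on slides 1 to 3. Of 7 epithelial markers, 6 to 7 were detected on slide 4 (summed intensity 6358 to 13882), 4 to 5 on slide 5 (1041 to 2577) and 1 to 3 on slides 1 to 3 (632 to 2360). The part of these cells in the results was not tested, so calls of member probes that involve PP are given with and without slide 4. A fit without slide 4 leaves a single array in each PP group, so a call lost there cannot be told apart from lost replication. In such pools of sorted cells, fewer cells of a type and less RNA per cell cannot be told apart.

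**Figure D1:**
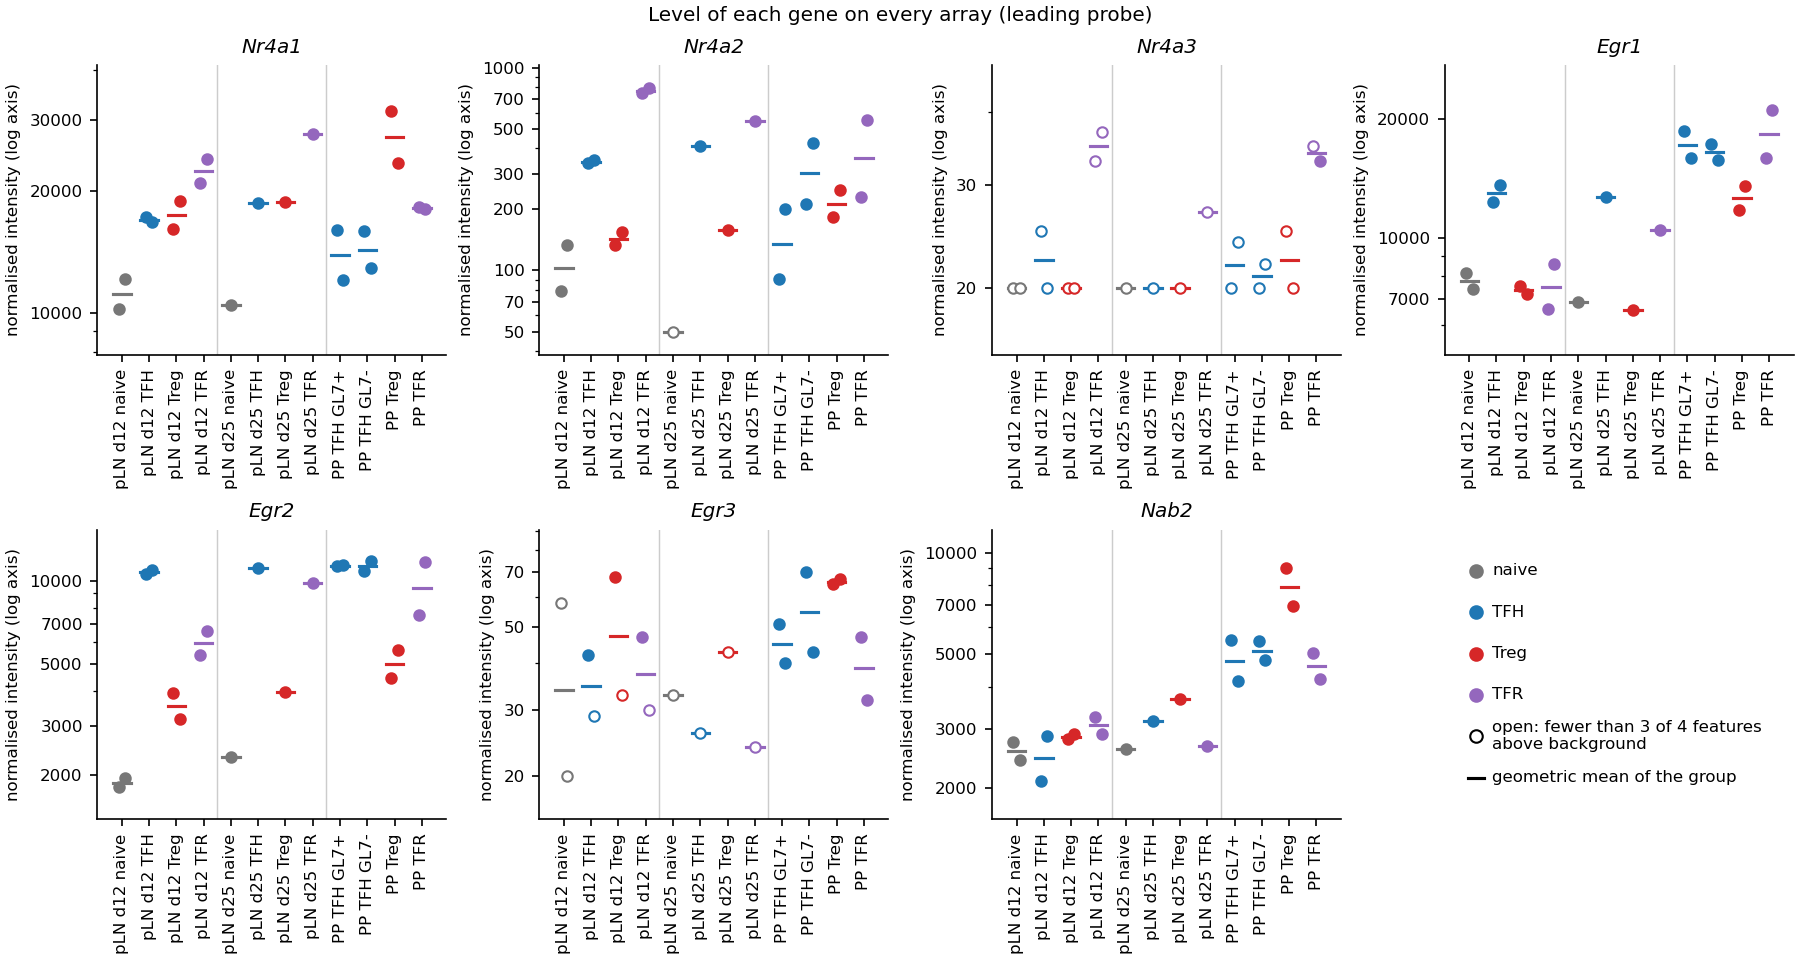
Normalised intensity (log10 axis) of the leading probes of the 7 genes on each of the 20 arrays, by group; each point is 1 array, and open symbols are arrays on which the probe was not well above background. Egr2 was lowest in naive T cells (1800 to 2313) and between 10553 and 11767 on all TFH arrays, whereas Nr4a3 stayed between 20 and 37.

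Nr4a1, also known as Nur77 and the gene behind widely used reporters of receptor signalling, was detected on all 20 arrays. On d12 in pLN it read 10223 and 12119 in naive T cells, 17221 and 16807 in TFH, 16167 and 18875 in Treg and 20959 and 24003 in TFR cells. On d25 the single arrays read 10467, 18698, 18827 and 27802 in the same order. In PP it read 15990 and 12040 in GL7+ TFH, 15918 and 12917 in GL7- TFH, 31610 and 23453 in Treg and 18264 and 18055 in TFR cells. Naive T cells were thus lowest in pLN without overlap with the other fractions, TFR cells were highest in pLN, and Treg cells were highest in PP.

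None of these differences passed the test for Nr4a1. A probe was called when limma gave an adjusted p under 0.05 together with an absolute log2 difference of at least 1. In pLN d12 the log2 difference was 0.61 ± 0.21 (SE, n = 2 against 2, limma adjusted p = 0.0704) between TFH and naive T cells, 0.65 ± 0.21 (adjusted p = 0.168) between Treg and naive T cells, and 0.36 ± 0.21 (adjusted p = 0.367) between TFR and Treg cells. In PP, TFR cells read 0.58 below Treg cells on the log2 scale (log2 difference -0.58 ± 0.21, adjusted p = 0.113). The difference between GL7+ TFH and Treg cells of PP was -0.97 ± 0.21 with a limma adjusted p of 0.012, just short of the fold threshold (1.96-fold lower). Within slides 4 and 5 that difference was -0.98 and -0.96. Without slide 4 it was -0.96 with an adjusted p of 0.0805.

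The step from Treg to TFR cells in Nr4a1 had opposite signs in the tissues. It was 0.37 and 0.35 within slides 1 and 2 and 0.56 on the d25 slide, but -0.79 and -0.38 within the PP slides. The test of this tissue difference gave -0.94 ± 0.30 with an unadjusted limma p of 0.00977 and an adjusted p of 0.3, so it did not pass over all probes.

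Nr4a2, a close relative of Nr4a1 known as Nurr1, was lowest in d25 naive T cells, where neither of its probes was well above background. On d12 in pLN the leading probe read 79 and 133 in naive T cells, 340 and 349 in TFH, 133 and 155 in Treg and 752 and 790 in TFR cells. The single d25 arrays read 50 in naive T cells, where the probe was not well above background, 411 in TFH, 158 in Treg and 545 in TFR cells. TFR cells were therefore highest and naive T cells lowest on both days, while Treg and naive T cells touched at 133 on d12.

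The second probe of Nr4a2 gave the same order in pLN d12. It read 75 and 53 in naive T cells (the latter not well above background), 168 and 181 in TFH, 126 and 119 in Treg and 322 and 533 in TFR cells. No 2 of these fractions overlapped on this probe. On d25 it read 28 and 98 in naive T and Treg cells, both not well above background, 330 in TFH and 695 in TFR cells.

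Nr4a2 rose in TFH over naive T cells of d12 pLN on both probes, by 1.75 ± 0.50 (SE, n = 2 against 2, limma adjusted p = 0.032, 3.36-fold) and 1.47 ± 0.32 (adjusted p = 0.00797, 2.77-fold) on the log2 scale. In this comparison 3 of the 8 member probes were called, all higher in TFH cells, against 14.7% of all probes tested in either direction (9.27% higher). Leaving out naive replicate 1 or either TFH array ended the call of the leading Nr4a2 probe (adjusted p up to 0.219), and leaving out naive replicate 2 ended that of the second probe (adjusted p = 0.0625). Nr4a2 also rose in TFR over Treg cells of d12 pLN, by 2.42 ± 0.50 (adjusted p = 0.011, 5.37-fold) and 1.75 ± 0.32 (adjusted p = 0.00574, 3.37-fold). The within-slide differences were 2.5 and 2.35 on the leading and 1.35 and 2.16 on the second probe. These were the 2 member probes called there, against 8.35% of all probes. Leaving out any 1 of the 4 Treg and TFR arrays ended the call of the leading probe (adjusted p up to 0.0679), and leaving out Treg or TFR replicate 2 ended that of the second probe (up to 0.0522).

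TFR cells also read above TFH cells in Nr4a2. On d12 in pLN the second probe rose by 1.25 ± 0.32 in TFR over TFH cells (limma adjusted p = 0.0469) and was the 1 member probe called there, against 5.01% of all probes. The leading probe gave a like difference of 1.16 ± 0.50 with an adjusted p of 0.284. It was 1.14 and 1.18 within slides 1 and 2, and with slide as a block it was called (adjusted p = 0.00801 for a fixed and 0.00534 for a random block), as was the second probe (adjusted p = 0.0109 and 0.0036). More of all probes were called with these blocks as well, 1835 and 1925 against 1116 with no block. In the fit with no block, without slide 4 the second probe's adjusted p was 0.0869. The call also ended without TFR replicate 2 (log2 difference 0.88, adjusted p = 0.314) and without most other single arrays of d12 pLN or PP. The TFH gate of pLN required GL7 and the TFR gate did not, so the comparison also differs in that gate.

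In PP the leading probe of Nr4a2 read 91 and 200 in GL7+ TFH, 213 and 427 in GL7- TFH, 184 and 248 in Treg and 230 and 554 in TFR cells. The second probe read 114 and 125, 209 and 358, 183 and 241, and 346 and 444 in the same order. On each slide TFR cells were highest and GL7+ TFH cells lowest on both probes. The slides themselves differed: on the leading probe, slide 4 lay 0.43 to 1.27 below slide 5 on the log2 scale in the 4 groups, with the widest gap in TFR cells.

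The rise from GL7+ TFH to TFR cells of PP was called on the second probe of Nr4a2 (1.71 ± 0.32, limma adjusted p = 0.0131, 3.28-fold), the 1 member probe called against 3.44% of all probes. The leading probe gave 1.4 ± 0.50 (adjusted p = 0.23), and it was called with slide as a block (adjusted p = 0.00471 for a fixed and 0.00251 for a random block). With these blocks 1376 and 1462 of all probes were called, against 765 with no block. Within slides 4 and 5 the differences were 1.34 and 1.47 on the leading and 1.6 and 1.83 on the second probe, and without slide 4 neither probe was called (adjusted p = 0.196 and 0.146). Leaving out either GL7+ TFH array or TFR replicate 2 also ended the call (adjusted p up to 0.111). The step from Treg to TFR cells in PP was 0.74 ± 0.50 (adjusted p = 0.464) and 0.90 ± 0.32 (adjusted p = 0.106), and neither probe passed. The tissue difference of that step was -1.68 ± 0.70 on the leading probe, with an unadjusted limma p of 0.0378 and an adjusted p of 0.543. With slide as a block it was called, at a limma adjusted p of 0.0203 for a fixed and 0.0129 for a random block. Of the 22264 probes, 1019 and 1137 were called with these blocks, against 122 (0.548%) with no block. Without slide 4, which leaves a single array per PP group, the tissue difference on the leading probe was -1.26. On the second probe this tissue difference was -0.85 ± 0.45 with no block (limma adjusted p = 0.744). The second probe was not called with slide as a fixed or random block either.

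GL7 is a carbohydrate epitope of mature follicular cells. Between GL7+ and GL7- TFH cells of PP, no member probe was called by limma, 2 of 8 had an unadjusted p under 0.05, and 2 of the 22264 probes tested (0.00898%) were called. Both member probes were those of Nr4a2, lower in GL7+ cells by a log2 difference of -1.16 ± 0.50 with an unadjusted limma p of 0.0421 and -1.19 ± 0.32 with an unadjusted p of 0.00361, both with an adjusted p of 1.0. The difference was negative on each slide, -1.22 and -1.1 on the leading and -0.87 and -1.52 on the second probe. The methods' t-test gave p under 0.05 for 556 probes and left 1 after Benjamini-Hochberg adjustment, none of them a member. Egr2 was nearly the same in both fractions, with a log2 difference of 0.01 and a 95% confidence interval of -0.5 to 0.51. The intervals were -0.52 to 0.42 for Nr4a1, -0.37 to 0.49 for Egr1 and -0.58 to 0.38 for Nab2.

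Nr4a3, known as NOR1, gave almost no signal on its probe. It read 33 and 37 on the pLN d12 TFR arrays, 27 on the d25 TFR array and 35 and 33 on the PP TFR arrays, against 20 to 25 on the 15 other arrays. Only PP TFR replicate 2 was well above background, so the probe was not tested and these readings are close to the floor of 20.

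Egr2, the Egr factor tied most closely to follicular helper cells and to anergy, separated TFH from naive T and Treg cells without overlap. On d12 in pLN it read 1800 and 1944 in naive T cells, 10553 and 10941 in TFH, 3936 and 3174 in Treg and 5405 and 6584 in TFR cells. On d25 it read 2313, 11104, 3980 and 9833 in the same order. In PP it read 11269 and 11372 in GL7+ TFH, 10813 and 11767 in GL7- TFH, 4442 and 5644 in Treg and 7500 and 11723 in TFR cells. The 7 TFH arrays lay between 10553 and 11767 in both tissues, above every naive T and Treg array.

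In pLN d12 Egr2 rose 5.74-fold from naive T to TFH cells (log2 difference 2.52 ± 0.23, SE, n = 2 against 2, limma adjusted p = 4.01e-05). It was the 1 call among the members that held in each of 30 alternative settings, with log2 differences of 2.43 to 2.59 and adjusted p of 8.2e-07 to 0.02. Within slides 1 and 2 the difference was 2.55 and 2.49, and it was 2.26 on the d25 slide. Treg cells lay 0.92 ± 0.23 above naive T cells (adjusted p = 0.0541) and TFR cells 0.76 ± 0.23 above Treg cells (adjusted p = 0.0601), and neither passed. Between Treg and naive T cells no member probe was called by limma, although 3 of 8 had an unadjusted p under 0.05, and 3.76% of all probes were called. TFR cells of d12 pLN read below TFH cells, with a log2 difference of -0.85 ± 0.23 that missed the threshold (adjusted p = 0.0595).

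In PP Egr2 rose 2.26-fold in GL7+ TFH over Treg cells (log2 difference 1.18 ± 0.23, limma adjusted p = 0.00651), the 1 member probe called against 9.87% of all probes. The differences were 1.34 and 1.01 within slides 4 and 5, and without slide 4 the adjusted p was 0.0851. It was 0.0509 without Treg replicate 1. TFR cells of PP lay 0.91 ± 0.23 above Treg cells with an adjusted p of 0.0272, under the fold threshold. Between TFR and Treg cells of PP no member probe was called by limma, although 6 of 8 had an unadjusted p under 0.05, and 9.25% of all probes were called. Without PP TFR replicate 1, the array with the highest B cell marker sum (189329, against 13695 in replicate 2), the Egr2 difference was 1.23. It was 0.58 without PP TFR replicate 2 and 1.05 without slide 4. Each of these fits leaves a single PP TFR array. The PP TFR arrays were 0.64 apart on the log2 scale, which is more than the difference of TFR from GL7+ TFH cells (-0.27 ± 0.23, 95% interval -0.78 to 0.23, adjusted p = 0.958).

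**Figure D2:**
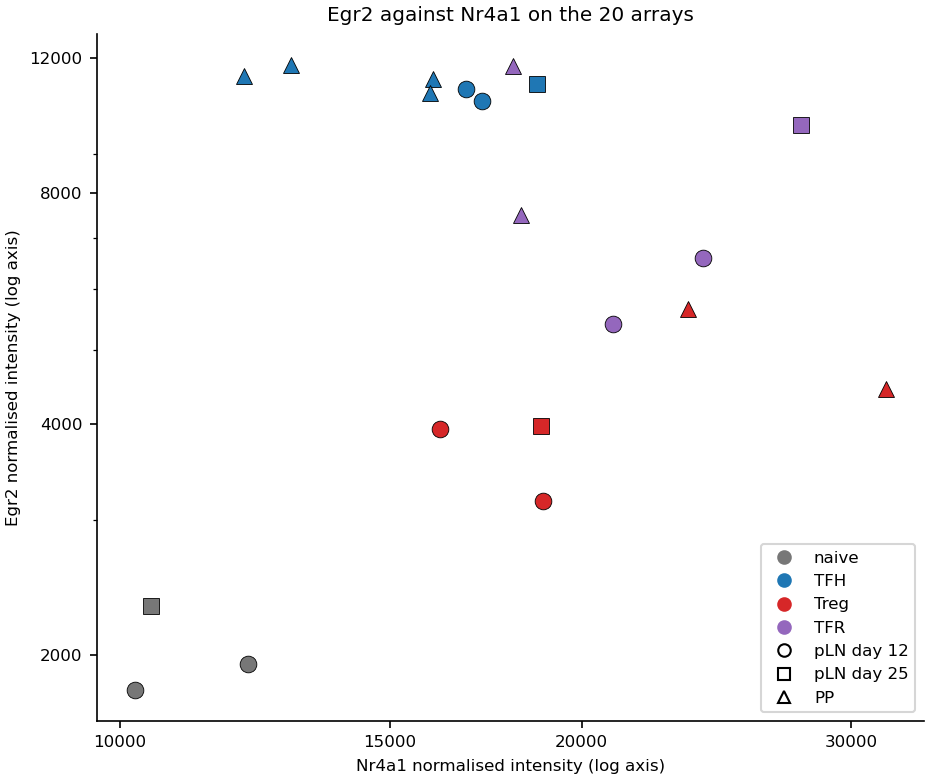
Normalised intensity of Egr2 (y axis) against Nr4a1 (x axis), both on log axes, for the 20 arrays, coloured by cell type with a symbol for each tissue and day. TFH arrays lie at the top (Egr2 10553 to 11767), PP Treg arrays lie to the right (Nr4a1 31610 and 23453) at lower Egr2, and naive T cells lie at the lower left (Egr2 1800 to 2313, Nr4a1 10223 to 12119).

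Egr1, the most general immediate early factor of the family, was detected on all 20 arrays. On d12 in pLN it read 8141 and 7429 in naive T cells, 12354 and 13634 in TFH, 7568 and 7200 in Treg and 6602 and 8582 in TFR cells. On d25 it read 6896, 12672, 6575 and 10467 in the same order. In PP it read 18603 and 15969 in GL7+ TFH, 17246 and 15773 in GL7- TFH, 11731 and 13541 in Treg and 15918 and 21053 in TFR cells. In pLN d12 only the TFH arrays stood above the rest, whereas in PP the TFR arrays lay within the range of the TFH arrays or above it.

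Within pLN d12 Egr1 differed under the fold threshold, by 0.74 ± 0.19 between TFH and naive T cells (SE, n = 2 against 2, limma adjusted p = 0.0219) and -0.79 ± 0.19 between TFR and TFH cells (adjusted p = 0.0411). Between tissues, Egr1 rose 2.43-fold in TFR cells of PP over those of d12 pLN (1.28 ± 0.19, adjusted p = 0.00232), the 1 member probe called against 11.1% of all probes. Without slide 4 the difference was 1.48 with an adjusted p of 0.0187. It was 0.98 and no longer called when arrays were scaled without quantile normalisation. Each slide holds 1 tissue, so no within-slide value exists for this difference. With slide as a random block the adjusted p was 0.0275. The differences between PP and pLN d12 were smaller and not called in Treg cells (0.77 ± 0.19, adjusted p = 0.0756) and TFH cells (0.41 ± 0.19, adjusted p = 0.282). The step from TFH to TFR cells of Egr1 differed between tissues by 0.87 ± 0.27, with an unadjusted limma p of 0.00956 and an adjusted p of 0.358. Between the tissues in that step no member probe was called, 1 of 8 had an unadjusted p under 0.05, and 0.611% of all probes were called.

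Egr3, a close relative of Egr2, was near background throughout. It read 20 to 70 and was well above background on 11 of 20 arrays, those of slides 4 and 5 and the TFH, Treg and TFR arrays of slide 1. It was not well above background on any array of slides 2 and 3. No comparison of Egr3 was called, and its arrays within a group were up to 1.53 apart on the log2 scale.

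Nab2, the corepressor, differed between the arrays of PP and those of pLN. Its leading probe read 2729 and 2421 in naive T cells, 2103 and 2848 in TFH, 2792 and 2888 in Treg and 3254 and 2896 in TFR cells of d12 pLN. On d25 it read 2602, 3162, 3671 and 2655 in the same order. In PP it read 5507 and 4147 in GL7+ TFH, 5460 and 4798 in GL7- TFH, 9013 and 6963 in Treg and 5017 and 4226 in TFR cells. Every PP array lay above every pLN array, and the PP Treg arrays were the highest. The second probe of Nab2 read 208 to 388 in pLN and 381 to 878 in PP, so there the tissues overlapped slightly, and the PP Treg arrays were again highest at 878 and 853.

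Nab2 rose 2.79-fold in Treg cells of PP over those of d12 pLN (log2 difference 1.48 ± 0.22, SE, n = 2 against 2, limma adjusted p = 0.00643), the 1 member probe called against 2.24% of all probes. The second probe gave a like difference of 1.44 ± 0.35 with an adjusted p of 0.0652. Without slide 4 the leading probe's difference was 1.29 with an adjusted p of 0.0773, and with slide as a random block its adjusted p was 0.0413. Leaving out replicate 1 of either Treg group also ended the call (adjusted p up to 0.0626). Nab2 differed by 0.97 ± 0.22 between the tissues in TFH cells (adjusted p = 0.0312, under the fold threshold) and by 0.59 ± 0.22 in TFR cells (adjusted p = 0.0989). Between the TFH cells of PP and pLN d12 no member probe was called by limma, 3 of 8 had an unadjusted p under 0.05, and 4.54% of all probes were called. Within PP, Nab2 in TFR cells lay -0.78 ± 0.22 from Treg cells (adjusted p = 0.0422, under the fold threshold), with -0.85 and -0.72 within the slides, whereas in pLN d12 the same step was 0.11 ± 0.22 (adjusted p = 0.859). The test of that tissue difference gave -0.90 ± 0.31, with an unadjusted limma p of 0.0154 and an adjusted p of 0.362. In the tissue difference of the step from Treg to TFR cells no member probe was called, 3 of 8 had an unadjusted p under 0.05, and 0.548% of all probes were called.

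**Figure D3:**
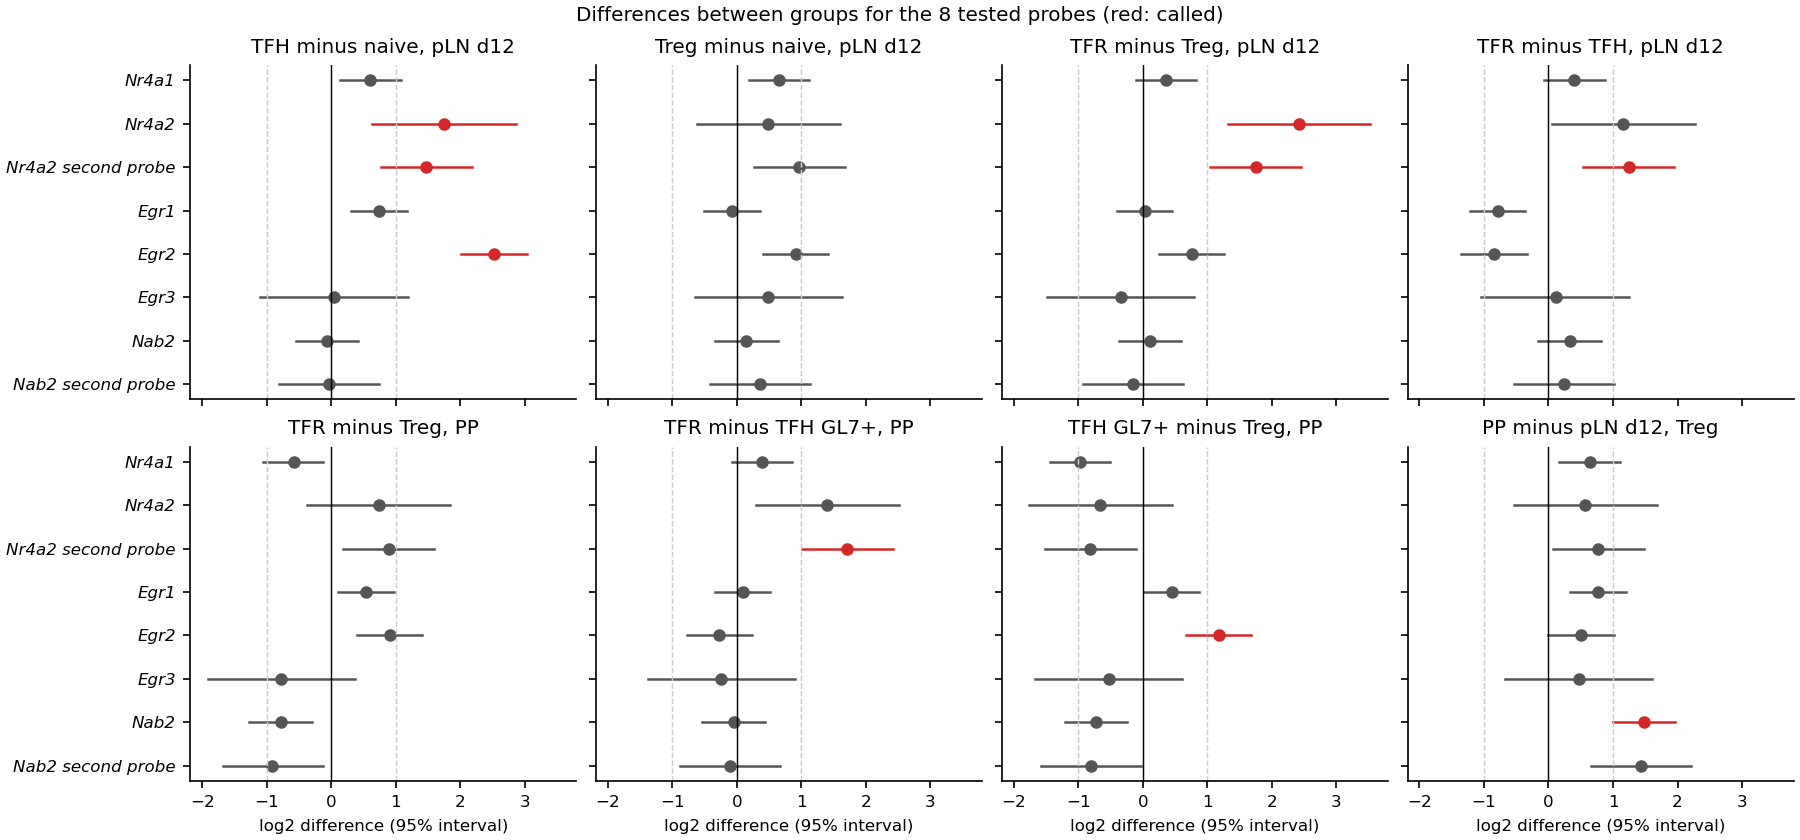
Log2 differences (x axis) of the 8 tested member probes in 8 comparisons, 1 panel each; points are limma estimates, bars their 95% confidence intervals, dashed lines an absolute log2 difference of 1, and red points were called at an adjusted p under 0.05 with an absolute log2 difference of at least 1. Egr2 between TFH and naive T cells (2.52) and Nr4a2 between TFR and Treg cells of d12 pLN (2.42) lie farthest from 0.

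The d25 arrays of pLN, 1 per fraction, gave no call against d12 for any member probe by limma, with 1, 1, 0 and 1 of 8 probes at an unadjusted p under 0.05 in naive T, TFH, Treg and TFR cells. Of all probes, 0.00898%, 0.0314%, 0% and 0.00898% were called. The single arrays are assumed to vary like the other groups. Egr2 in TFR cells read 9833 on d25 against 5405 and 6584 on d12, with a log2 difference of 0.72 ± 0.28, an unadjusted limma p of 0.0267 and an adjusted p of 1.0. The other two were the second probe of Nr4a2 in TFH cells (0.92 ± 0.39) and in naive T cells (-1.16 ± 0.39), where it was not well above background on d25. All d25 arrays lie on slide 3 and all d12 arrays on slides 1 and 2, so a difference by day cannot be told apart from one by slide. With slide as a random block, 0 of 8 member probes had an unadjusted p under 0.05 in each fraction.

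Across all 12 groups, limma's F test (p under 0.001 and adjusted p under 0.005) called 4 of the 8 member probes, against 17.3% of all probes. These were the probes of Egr1 (adjusted p = 0.0012) and Egr2 (adjusted p = 0.000105), the leading probe of Nab2 (adjusted p = 0.00269) and the second probe of Nr4a2 (adjusted p = 0.000232). Without slide 4, which leaves a single array in each PP group, fewer of the 8 were called. That drop cannot be told apart from lost replication. Nr4a1 (adjusted p = 0.0111) and the leading probe of Nr4a2 (adjusted p = 0.0088) missed the threshold.

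Ordered by group mean, Egr2 formed a plateau. From PP GL7+ TFH (13.47 on the log2 scale) over GL7- TFH, d25 TFH, d12 TFH and d25 TFR to PP TFR cells (13.19), no step exceeded the residual SD of 0.23. Below them lay d12 TFR (12.54), PP Treg (12.29), d25 Treg (11.96), d12 Treg (11.79), d25 naive (11.18) and d12 naive T cells (10.87), and of these steps only that between the Treg groups of pLN was within the SD. Egr1 was led by PP TFR (14.16), GL7+ TFH (14.07) and GL7- TFH (14.01), which did not differ beyond the SD of 0.19, and ended with d25 Treg cells (12.68). Nr4a1 ran from d25 TFR (14.76) and PP Treg (14.73), equal within the SD of 0.21, to d12 naive (13.44) and d25 naive T cells (13.35). Nab2 was led by PP Treg cells alone (12.95), followed by the other PP groups (12.32 to 12.17) and pLN (11.84 to 11.26). For Nr4a2 only 2 of 11 steps exceeded the SD of 0.50 on the leading and 5 of 11 that of 0.32 on the second probe, and for Egr3 none did.

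Across the 12 group means, which share slides and were not all replicated, the members varied together to different degrees. Pearson's r (Spearman's rho) was 0.80 (0.76) for Egr1 and Egr2, 0.72 (0.73) for Nr4a1 and Nr4a2, 0.69 (0.47) for Nr4a2 and Egr2, 0.56 (0.40) for Egr1 and Nab2 and 0.41 (0.11) for Nr4a1 and Egr2. It was 0.76 (0.71) for Egr3 and Nab2, where Egr3 was near background. The probes of Nr4a2 gave 0.95 and those of Nab2 0.98. Among the 22264 tested probes, those most like Egr2 were of Tbc1d4, Icos and Tnfsf13b (r = 0.989 each). Nr4a1 was nearest to Serpina3f (0.951), Serpina3i (0.947) and Rasgef1b (0.942), and Nr4a2 to Cks2 (0.956), an unnamed probe (0.949) and Rad51b (0.946). Egr1 was nearest to BC028528 (0.988), Slc41a1 and Grtp1 (0.974 each), Egr3 to Ccdc158 (0.914), Ocm (0.902) and an unnamed probe (0.899), and Nab2 to Gm6938 (0.966), Ccdc160 and Hnf4a (0.964 each). With 12 points and many probes, such values describe likeness only.

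The members were then set beside other genes of the receptor response, 87 genes grouped by role, of which 83 were tested. Fosl1, Spry2 and Rel were not tested and Hspa1b had no probe. Pdcd1, a gate gene, Il2ra, also a marker of Treg cells, and Icos, also a marker of TFH cells, stay in the counts and medians. The counts therefore reflect in part the identity of the sorted cells. Between TFH and naive T cells of d12 pLN, 28 rose and 7 fell, against 9.27% and 5.48% of all probes, and the median log2 difference of the list was 0.48 against -0.091 over all probes. Between Treg and naive T cells 16 rose and 1 fell, against 2.86% and 0.898% of all probes (median 0.13 against -0.026). Of those 16, 7 were surface activation markers and 3 were exhaustion and dysfunction factors. Between TFR and Treg cells on d12 in pLN 11 rose and 4 fell, against 5.79% and 2.56% (median 0.03 against -0.084). In PP 14 rose and 8 fell, against 6.23% and 3.02% (median 0.32 against -0.055). Fewer list genes, and fewer of all probes, were called in PP without slide 4, which leaves a single array per PP group.

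**Figure D4:**
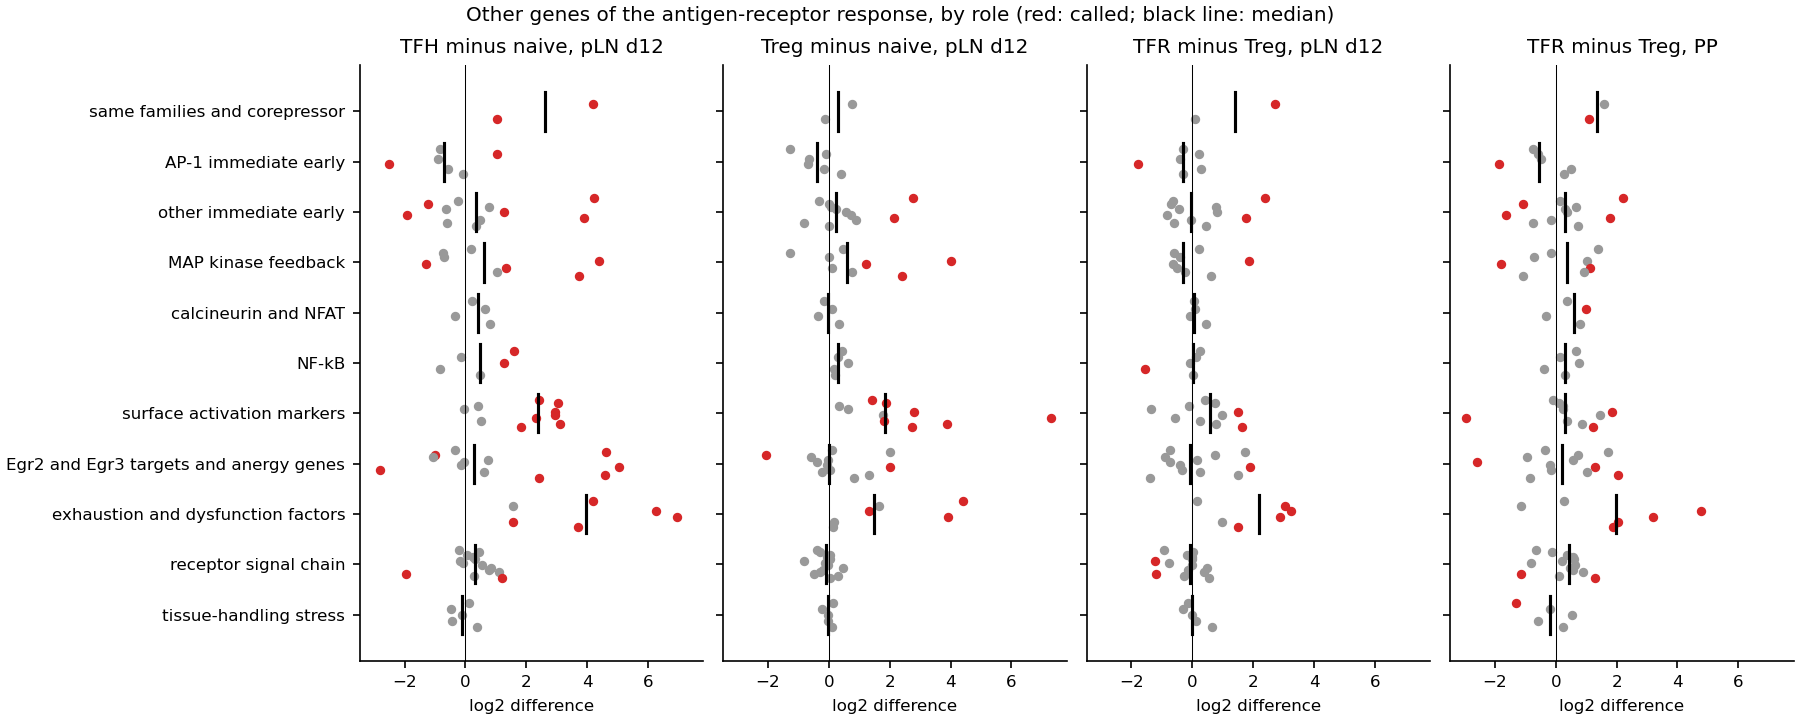
Log2 differences (x axis) of the 83 tested response-list genes by role (rows) in 4 comparisons, 1 panel each; each point is 1 gene, red points were called, and black lines are the medians of each role. Exhaustion and dysfunction factors lie to the right in TFH against naive T cells (median 3.96) and in TFR against Treg cells (medians of 2.19 on d12 in pLN and 1.96 in PP), while AP-1 genes have a median of -0.69 in TFH against naive T cells. The exhaustion and dysfunction factors include the gate gene Pdcd1.

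In TFH against naive T cells of d12 pLN, both relatives of the members rose. Egr4 read 20 in naive T cells, where it was not well above background, and 362 in TFH cells, at least 5.89-fold higher (limma adjusted p = 0.000361), and the corepressor Nab1 rose by 1.04 (adjusted p = 0.00921). Of 6 AP-1 genes tested, immediate early genes like the members, Fosb rose (1.04, adjusted p = 0.00602), Jun fell by 2.51 on the log2 scale (adjusted p = 0.000411), and 4 did not pass. Of 5 handling stress genes tested, which tissue dissociation can induce, none passed in this comparison. Of 11 other immediate early genes 3 rose and 2 fell, led by the repressors Bhlhe40 (4.23, adjusted p = 0.000178) and Nfil3 (3.91, adjusted p = 1.1e-05).

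The feedback phosphatases and adaptors of the MAP kinase pathway gave 3 of 8 higher and 1 lower. Among those higher were Spry1 (3.73, adjusted p = 0.000551) and Dusp4, at least 6.81-fold higher. Of 5 NF-kB genes, Nfkb1 (1.59) and Nfkbid (1.28) rose, while none of 4 calcineurin and NFAT genes passed. Surface activation markers rose in 7 of 10, led by the costimulatory receptor Tnfrsf4 (3.1) and the adhesion receptor Cd44 (3.06). Of 12 known targets of Egr2 and Egr3 or anergy genes, 4 rose and 2 fell, and among those that rose were the inhibitory receptor Lag3 (5.05, adjusted p = 7.53e-06) and the cell cycle inhibitor Cdkn1a, at least 9.12-fold higher. Exhaustion factors rose in 5 of 6, led by Tigit (6.95, adjusted p = 6.92e-06) and Pdcd1 (6.26), the latter a gate gene. Of 14 genes of the receptor signal chain, the kinase Zap70 rose (1.19) and the Ras activator Rasgrp1 fell by 1.95 on the log2 scale, and 12 did not pass.

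From Treg to TFR cells, the genes called higher in pLN d12 beside Nr4a2 included Egr4, at least 3.24-fold higher (limma adjusted p = 0.009), Bhlhe40 (2.38), Nfil3 (1.75), Dusp4 (1.87), the costimulatory receptor Tnfrsf9 (1.63), the activation marker Cd83 (1.49), Lag3 (1.89) and the inhibitory receptor Havcr2 (3.04). Jun (-1.8), the NF-kB regulator Nfkbiz (-1.57) and Rasgrp1 (-1.2) fell. In PP, Bhlhe40 (2.2), Nfil3 (1.79) and Cd83 (1.84) rose and Jun (-1.88) and Rasgrp1 (-1.15) fell as well. There Nab1 (1.08), Nfatc2 (1.01), the ubiquitin ligase of anergy Rnf128 (2.04), Tigit (3.19) and Zap70 (1.28) rose, and the phosphatase Dusp5 (-1.81), the IL2 receptor chain Il2ra (-2.96) and the death ligand Fasl (-2.59) fell. Atf3, a stress-induced factor, was at least 2.35-fold lower in TFR than in Treg cells of PP, where 1 of 5 handling stress genes was called.

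Between TFR and TFH cells of d12 pLN, 9 list genes rose and 8 fell, against 2.81% and 2.2% of all probes (median -0.28 against 0.0075), led by Il2ra (4.4) and Havcr2 (3.15) on one side and Sema7a (-2.98) and Tox2 (-2.09) on the other. Il2ra is also a marker of Treg cells, and the Foxp3 reporter separated TFR from TFH cells in both tissues. Between TFR and GL7+ TFH cells of PP, 10 rose and 2 fell, against 2.34% and 1.09% (median 0 against -0.054), led by Il2ra (4.56) and Tnfrsf9 (2.67). Between GL7+ TFH and Treg cells of PP, 17 rose and 12 fell, against 5.26% and 4.62% (median 0.23 against 0.026), with Egr2 higher beside Nab1 (1.29) and Cdkn1a (3.01) and with Il2ra (-7.51), Dusp5 (-2.99) and Myc (-2.58) lower. In both of these PP comparisons fewer list genes, and fewer of all probes, were called without slide 4. Between PP and pLN d12, 3 list genes rose and 1 fell in Treg cells, against 1.82% and 0.422% of all probes. In TFH cells 1 rose and 5 fell, against 2.36% and 2.18%. In TFR cells 10 rose and 7 fell, against 5.74% and 5.39%. Fewer list genes, and fewer of all probes, were called between the tissues in each cell type without slide 4. Of 5 handling stress genes tested, 1 was called higher in Treg cells of PP than of d12 pLN. Their median log2 difference there was 0.57, against -0.045 over all probes. None of them was called between the tissues in TFH or TFR cells.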

How the data were processed

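RNA of 20 sorted samples was measured on one-colour Agilent arrays, read per the labels with Agilent Feature Extraction 10.7.3.1. The authors deposited scanner files with the processed intensity of each feature, and a matrix with linear intensity averaged per probe, quantile normalised, scaled and floored. No columns of the authors' own comparisons were used. Values were rebuilt from the scanner files: the geometric mean of the processed intensity over 4 features per probe (without outlier features, features outside 1.42 times the interquartile range and those with a pixel coefficient of variation above 0.5), quantile normalisation, a 75th percentile of 1500, a floor of 20 and log2. The log2 values differed from the authors' deposited values by a median of 0.0347 to 0.0362 per array. A probe was detected when at least 3 of 4 features were well above background.

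The 17 comparisons are contrasts of 1 linear model with 12 group means, fitted to all arrays with limma 3.58.1 in R 4.3.3 (lmFit and eBayes, 8 residual degrees of freedom, two-sided, Benjamini-Hochberg over 22264 probes). The code was tested on simulated data. Replicates are pools of mice, and in d12 pLN and PP they also differ in slide and RNA input. Per the labels, the input there was 50 ng for replicate 1 and 40 ng for replicate 2. The p-values therefore measure the spread from pools, slides and RNA input together, and the number of pools limits the precision. A fold against a group not well above background is a bound, taken against the lowest detected signal of each array. Gene symbols were updated by accession for 27508 probes. Of the response list, at most 2 genes of each role with the largest called change, by fitted value, are named per comparison; for a gene with only a bound this gives no rank. Members, lists and tests were chosen with earlier results of these data known. Alternatives covered the authors' matrix, normalisation, background correction, detection filter, slide, RNA input, the groups fitted, the pair of probes of a gene and each array left out.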

Additional observations from a re-analysis of the deposited data

Results flagged for a closer look

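No member probe of the Nr4a and Egr genes changed differently in the tissues by the test of the difference itself with no block for slide, but 2 genes of the response list did. With slide as a block the leading Nr4a2 probe was called for TFR minus Treg cells (-1.68, limma adjusted p = 0.0203 for a fixed and 0.0129 for a random block). More of all probes were called with these blocks as well, 1019 and 1137 against 122 with no block. The leading probe's difference was -1.26 without slide 4. The second probe gave -0.85 ± 0.45 with no block (limma adjusted p = 0.744) and was not called with either block. For Dusp6, a phosphatase that dampens ERK signalling, the difference of TFR minus Treg cells was 1.65 ± 0.26 (SE) higher on the log2 scale in PP than in pLN d12 (limma adjusted p = 0.0248), and that of TFR minus TFH cells was 1.61 ± 0.26 higher (adjusted p = 0.0261). Its mean intensity was 4384 in TFR cells of pLN d12 and 11089 in those of PP, against 6235 and 5026 in Treg cells. For the AP-1 gene Fosl2, the difference of TFR minus TFH cells was 2.11 ± 0.35 higher in PP than in pLN d12 (adjusted p = 0.0281), with mean intensities of 234 and 207 in TFH and TFR cells of pLN d12 and 124 and 474 in PP. Without slide 4 no gene of the list was called in these tissue differences. That fit leaves a single array in each PP group, and fewer of all probes were called as well. The part of the B cell and epithelial signal of slide 4 was not tested.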

How the results depend on the processing

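No called difference reversed under any alternative. The number of member probes called moved as follows. Between TFH and naive T cells of d12 pLN (3 called) it was 1 with only probes detected on all arrays or only the compared groups, and 2 with normexp background (second Nr4a2 probe lost) or no detection filter (leading Nr4a2 probe lost). Between TFR and Treg cells of d12 pLN (2 called) it was 0 with only probes detected on all arrays and 1 with only the compared groups. Between TFR and TFH cells of d12 pLN (1 called) it was 0 with normexp background, no detection filter, only probes detected on all arrays, only the compared groups or without slide 4, and 2 with slide as a fixed or random block or RNA input as a covariate. Between TFR and GL7+ TFH cells of PP (1 called) it was 0 with only probes detected on all arrays, only the compared groups or without slide 4, and 2 with a fixed or random block or RNA input. Between GL7+ TFH and Treg cells of PP (1 called) it was 2 with the authors' matrix or without quantile normalisation, and 0 with only the compared groups or without slide 4. Between PP and pLN d12 it was 2 with RNA input in Treg, TFH and TFR cells, 0 with only the compared groups in Treg and TFR cells, 0 without slide 4 in Treg cells and 0 without quantile normalisation in TFR cells. In the tissue difference of TFR against Treg cells (0 called) it was 1 with a fixed or random block. By the F test (4 called) it was lower without slide 4, which leaves a single array in each PP group. Calls over all probes moved as well. With a fixed block, a random block and RNA input they were 1835, 1925 and 1628 between TFR and TFH cells of d12 pLN (main fit 1116). Between TFR and GL7+ TFH cells of PP they were 1376, 1462 and 1169 (main fit 765). Between the tissues they were 1143, 2015 and 3533 with RNA input in Treg, TFH and TFR cells (main fit 499, 1011 and 2476). The cause of the changes in member counts was not tested, except that fewer probes or arrays enter where probes or groups are left out. With only the compared groups, none of the 22264 probes was called between TFR and TFH cells of d12 pLN. The same held between TFR and GL7+ TFH cells of PP and between Treg cells of the tissues. The member counts of 0 were fixed there. Neither Nr4a2 probe was detected on every array, so neither could be called with only probes detected on all arrays. Between TFH and naive T cells of d12 pLN, 3283 of all probes were called in the main fit. With normexp background 2651 were called there, and with only the compared groups 1463. Between TFR and Treg cells of d12 pLN, 1858 were called in the main fit and 585 with only the compared groups.

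With each array left out in turn, the count ranged from 2 to 3 for TFH against naive T cells, 0 to 2 for TFR against Treg and 0 to 1 for TFR against TFH cells of d12 pLN, 0 to 1 for TFR against Treg, 0 to 1 for TFR against GL7+ TFH and 0 to 2 for GL7+ TFH against Treg cells of PP, 0 to 1 for PP against pLN in Treg cells, 1 to 1 in TFR cells and 3 to 4 for the F test. The call of the second Nr4a2 probe between TFR and TFH cells of d12 pLN was lost in 17 of 29 alternatives (adjusted p = 0.0036 to 0.314). No paired analysis was possible because the labels give no replicate numbers that pair samples; arrays of 1 slide were compared instead by the fit with slide as a fixed block. A fixed block for slide could not be fitted between tissues, since each slide holds 1 tissue. Signal over background limits Nr4a3 and Egr3, whose readings of 20 to 70 lie at or under the lowest detected intensity of many arrays (20 to 144).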
